A study of Mus musculus with 8 samples.

Results

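The genes described here encode the centrosomal proteins of the Cep series, the subunits of intraflagellar transport (Ift) and the Bardet-Biedl syndrome proteins (Bbs). Members were the gene rows whose symbol begins with Cep, Ift or Bbs followed by a digit, with a mean count of at least 10. All 56 such genes in the table passed that minimum, of 17597 genes listed, of which 13590 reached a mean count of 10. They comprised 34 Cep, 14 Ift and 8 Bbs genes. Of the 56, 55 were protein-coding, and Cep83os was a noncoding RNA transcribed away from Cep83. The lowest members above the minimum were Cep83os, at a mean count of 16.6, Cep112 at 27.7 and Cep85l at 79.4, and no gene with such a symbol lay below it.

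The libraries were made from embryonic stem cells of mouse, of a Cast x 129S background, in which METTL3, the enzyme that writes N6-methyladenosine (m6A) on RNA, carries an FKBP12F36V degron. The small molecule dTAG-13 marks a protein with this tag for destruction. Of 8 libraries, 4 came from cells given dTAG-13 for 26 hours and 4 from untreated cells, and in each group 2 replicates came from clone C3 and 2 from clone H5. Both groups shared the degron on METTL3 and a TetOn promoter in place of the endogenous Xist promoter, which the labels put on the 129S allele and the study's methods on the Cast X chromosome, and neither received doxycycline. Cells were grown on mitomycin-inactivated mouse fibroblasts, so the RNA may include feeder RNA. The molecule label and the study's methods give total RNA, whereas the extract protocol in the labels is one for chromatin-bound RNA.

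The level of a gene is given as its mean count, the authors' mean over all 8 libraries, treated and untreated together, of reads divided by size factors. The table used gave no value for a single library or group outside the authors' own comparison, whose columns were not used. The values therefore have no replicate error, library totals are not known here, and dTAG-13 was not compared with the untreated cells. Every comparison below is between genes, over the same libraries, and is a description with no test. Because mean counts grow with transcript length, genes were compared by the level per kb, the mean count divided by the kb of merged exon.

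A centrosome is a pair of centrioles within a protein matrix. The older centriole carries distal and subdistal appendages and can dock at the membrane to seed a primary cilium. Within the cilium, trains of IFT-B and IFT-A carry cargo outward with kinesin and back with dynein, and the BBSome couples membrane proteins to these trains. In messenger RNA, m6A lies mostly in long internal exons and in last exons, because exon junction complexes keep the methyltransferase from the RNA near splice junctions. Exon structure is therefore a feature of a gene that bears on its methylation.

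RFX transcription factors bind the X-box, a paired motif found upstream of many ciliary genes. Promoter windows of RefSeq (GRCm38.p6), from 250 bases before to 50 after a transcript start, were present for 48 of the 56 members. They were searched for GTTNCC followed by GGNAAC with 0 to 3 bases between these blocks, a motif that reads the same on both strands. These letters occurred in 4 members, and 3 of the matches are shown, in capitals, as the stretches of promoter that the count rests on.

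Bbs7: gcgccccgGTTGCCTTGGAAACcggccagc
Cep19: agccttctGTTGCCTTGGGAACgatcctcg
Cep41: cgtcccgcGTTGCCCTTGGCAACcattgag

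The Bbs7 stretch lies at chr3:36613489-36613518 on the minus strand, and its match begins 121 bases before the RefSeq start. In GENCODE, the annotation used below for exons, the Bbs7 gene starts further upstream. Its match therefore lies nearer to that start or inside the gene. The Cep41 stretch is at chr6:30693859-30693888, also on the minus strand, with the match 131 bases before the start. The Cep19 stretch, at chr16:32099803-32099832 on the plus strand, begins its match 22 bases after the start. The spacer between the blocks is 2 bases in Bbs7 and Cep19 and 3 in Cep41. A match occurred in 8.33% of the members with a window, in 253 of 27025 symbols with a window (0.936%) and in 111 of the 10159 genes with a window that reached a mean count of 10 (1.09%). With the spacer fixed at 2 bases, the members with a match were 2 of 48 (4.17%), Bbs7 and Cep19, compared with 143 of 27025 symbols (0.529%). By family, with any spacer, 1 of 8 Bbs, 2 of 29 Cep and 1 of 11 Ift windows held these letters. Cep76, Cep120, Cep192, Cep350, Ift80, Ift81 and Ift122 were among those not searched.

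The members as a whole were expressed at the level of an ordinary gene. Their median level was 111 per kb, compared with 110 for the 13455 genes that reached the minimum and had an annotated exon length. Cep, Ift and Bbs genes had median levels of 117, 119 and 99.5 per kb. All but 4 members lay above the lower quartile of all genes, 27.2 per kb, and 4 lay above the upper quartile, 347 per kb. The mean counts of the 56 members added up to 30798, which is 0.211% of the sum over all genes. A mean count of 100 was reached by 51 of 56 members (91.1%) and by 72.8% of the genes above the minimum. These counts are not scaled to length, and the median transcript was 3514.5 bases in members and 2972 in all genes. In RNA from a whole culture, a low level in every cell and a higher level in few cells cannot be told apart.

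**Figure D1:**
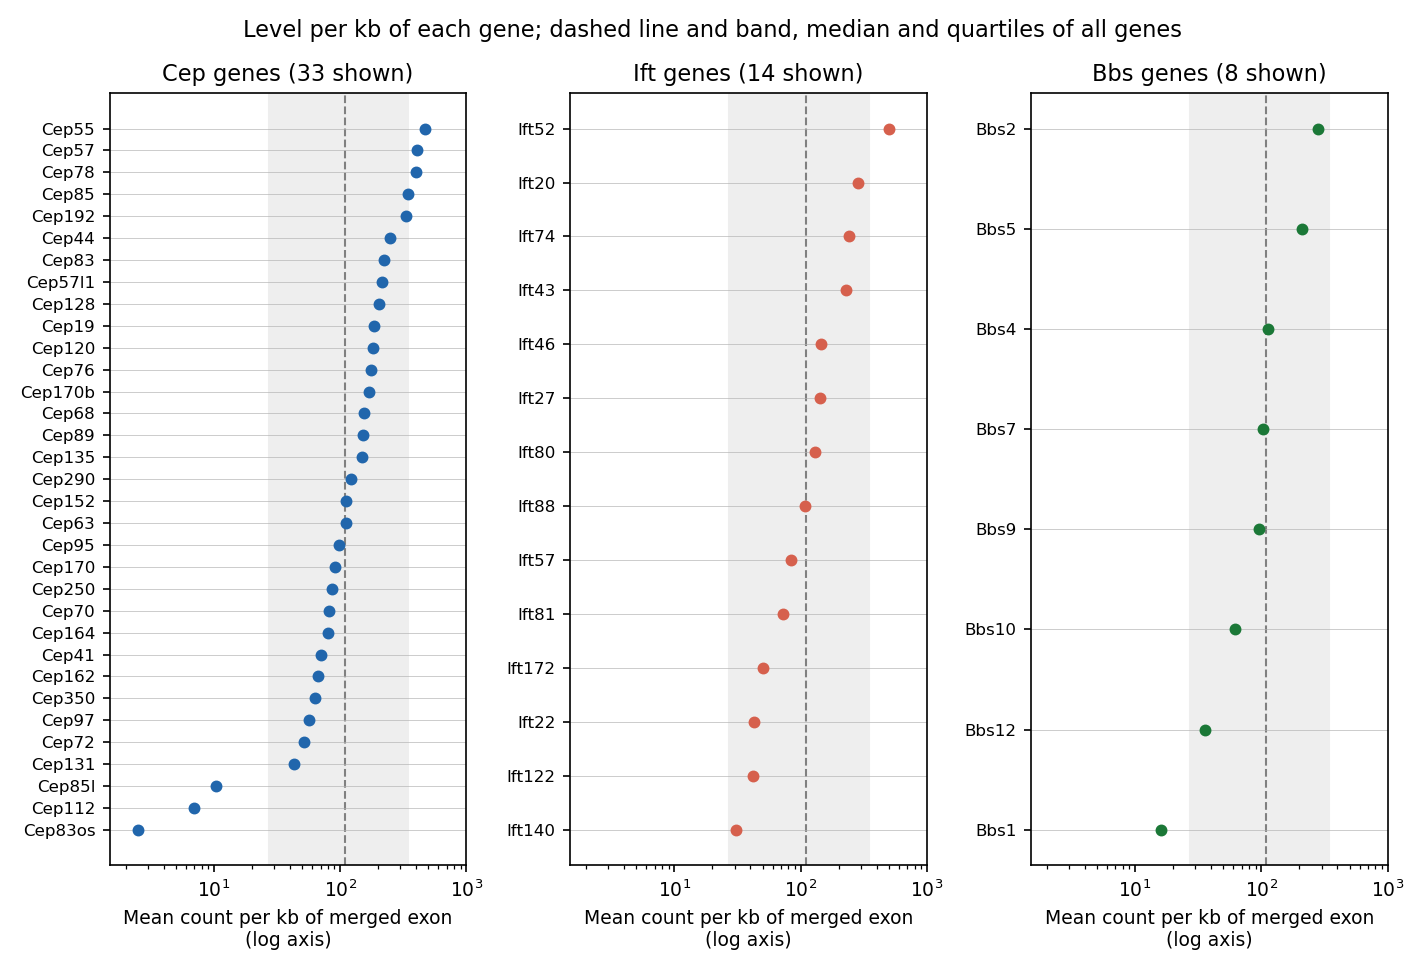
Level of each member as the mean count per kb of merged exon over the 8 libraries (x axis, log scale), with 1 point per gene and 1 panel per family, for 33 of the 34 Cep genes and all Ift and Bbs genes. The dashed line and grey band are the median (110) and quartiles of all genes, and most members of each family fall inside the band, with Cep83os, Cep112, Cep85l and Bbs1 below it.

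The stem cell identity of the cultures was visible in the same table. All 8 markers of embryonic stem cells were listed, with mean counts from 1415 for Klf4 to 11934 for Pou5f1. Of 10 fibroblast markers, 6 reached the minimum. Fn1, Sparc and Vim, which stem cells also express, stood at mean counts of 4941, 3052 and 2073, whereas Col1a1 and Col1a2 stood at 19.8 and 13.8. Col3a1, Dcn, Lum and Postn were each under the minimum, with Col3a1 at 8.38 and Lum at 1.45. Thy1 was at 116. The part of feeder RNA in the members' levels was not tested.

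The 7 genes of centriole assembly had a median level of 148 per kb, and 6 of them lay above the median of all genes, 2 only just. Cep85, which binds Stil in centriole duplication and restrains the kinase Nek2, stood at 342 per kb with a mean count of 1330. Cep192, the scaffold that recruits Plk4 and Aurora A to the centrosome, stood at 334 per kb and had the highest mean count of any member, 2702. Cep120, needed for centriole elongation, and Cep135, a component of the cartwheel, were at 182 and 148 per kb. Cep152 and Cep63 form a ring around the mother centriole and act together in duplication. Both were at 111 per kb, with mean counts of 643 and 549. Cep63 has 4958 bases of merged exon but 2696 in its transcript with the longest coding sequence, so its level depends on the length used. In Cep152 both lengths are 5768 bases. Cep97, the partner of Ccp110 in capping the centriole, was lowest at 56.4 per kb. Ccp110 itself was at 275 per kb, and the kinase Plk4 at 433 per kb.

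Cep55, which acts at the midbody to recruit the machinery that separates daughter cells, had the second highest level of all members, 467 per kb, with a mean count of 1291. Cep57, a pericentriolar protein, followed at 409 per kb and its paralogue Cep57l1 stood at 213. Cep78, a protein of the mature centriole, was at 399 per kb. Cep55, Cep57, Cep78 and Ift52 were the only members above the upper quartile of all genes.

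Appendage genes were expressed at middling levels. Among the distal appendage genes, Cep83, which stands at the root of the appendage and is needed for membrane docking, was at 224 per kb, Cep89 at 151 and Cep164 at 80.6. The subdistal appendage genes Cep128 and Cep170 were at 202 and 91.2 per kb, and Cep170b, the paralogue of Cep170, at 168. Cep250 and Cep68, which form the linker that holds paired centrioles together, were at 86.8 and 155 per kb. At the transition zone, the gate at the base of the cilium, Cep290 stood at 122 per kb and Cep162 at 66.3. Cep131 and Cep72, proteins of the centriolar satellites, were at 42.8 and 52.1 per kb.

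The lowest levels of all were those of 3 Cep genes. Cep83os was at 2.53 per kb, Cep112 at 6.98 and Cep85l at 10.3. The exons of each share bases with a gene on the opposite strand: 344 in Cep83os with Gm49167, 80 in Cep112 with Cep112os1 and 439 in Cep85l with Gm47641. Whether reads were counted by strand is uncertain, so these low values may hold reads of the partners. Such overlap was present in 11 of the 56 members, and its share in all genes was not computed. It was largest in Cep290, with 776 bases shared with 4930430F08Rik, and Cep63 shared 239 bases with Anapc13.

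Levels differed widely within the transport complexes. Among the 11 IFT-B genes, Ift52, a core subunit on which the complex assembles, had the highest level per kb of all 56 members, 504, with a mean count of 1132. Ift20, which also serves at the Golgi, was at 283 per kb, and Ift74, part of the tubulin-binding module, was at 241. Its partner in that module, Ift81, was at 72.9 per kb. Ift46, Ift27 and Ift80 were at 145, 143 and 131 per kb, and Ift88 at 107. The adaptor Ift57 was at 84.2 per kb, Ift172, the largest subunit, at 50.5, and the small GTPase Ift22 at 42.4. The IFT-B genes with an Ift symbol thus spanned from 42.4 to 504 per kb.

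The 3 IFT-A genes had close mean counts but not close levels. Ift122, Ift43 and Ift140 had mean counts of 181, 185 and 237. Per kb of exon, the short Ift43 stood at 229, compared with 42.1 for Ift122 and 30.8 for Ift140. Wdr19, another IFT-A subunit, also named Ift144, was at 50.4 per kb, Ttc21b at 55.1 and Wdr35 at 388. The 10 other intraflagellar transport genes fixed as a list, which carry other symbols, were all listed, with a median of 95.0 per kb. Ttc30a1, Ttc30a2 and Ttc30b are near-identical copies, and because only uniquely aligned reads were kept, their levels of 111, 7.24 and 37.4 per kb are uncertain and may be too low.

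Of the 6 BBSome subunits, Bbs2 was highest at 282 per kb, followed by Bbs5 at 211 and Bbs4 at 112. Bbs7 was at 102 per kb, Bbs9 at 96.6 and Bbs1 at 16.0. Bbs1 had the lowest level per kb outside the Cep genes, with a mean count of 93.6. Bbs12 and Bbs10, which encode relatives of chaperonins that help to build the BBSome, were at 35.9 and 62.2 per kb. Of the BBSome genes under other symbols, Arl6, the GTPase that brings the BBSome to membranes, was at 238 per kb, Ttc8 at 181, and Mkks, the third of the chaperonin-like genes, at 207.

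Other genes of the same structures were fixed as lists. All 21 centriole and pericentriolar genes were listed, with a median of 150 per kb, from 20.0 for Poc1b to 917 for Cetn3. Of 8 genes of the ciliary motors, 7 reached the minimum, with a median of 155 per kb, and Kif17 was listed at a mean count of 5.23. The 14 transition zone genes had a median of 81.0 per kb. The 6 RFX and FOXJ1 factors had a median of 48.5 per kb, with Rfx7 highest at 127. Of 14 motile cilium markers, 10 were listed and 9 reached the minimum, with a median of 24.8 per kb. These 9 ranged from 1.57 per kb for Dnah5, a dynein motor of motile axonemes, to 144 for Rsph1, a radial spoke gene. Rsph1 alone was above the median of all genes, followed by Rsph4a at 96.7 and Foxj1 at 54.3 per kb.

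The members had more exons than the median gene, at a similar length of the longest internal exon. In the transcript with the longest coding sequence (GENCODE vM21, GRCm38), members had a median of 17 exons, compared with 9 for all genes. A count of 10 or more exons was found in 47 of 56 members (83.9%) and in 46.6% of all genes. Scaled to transcript length, the median was 5.08 exons per kb for the members and 3.45 for all genes. Of the 56 members, 40 lay above the median of all genes, 26 above the upper quartile of 5.27 and 7 below the lower quartile of 1.87. The longest internal exon had a median of 226 bases in the 54 members with one and 218 in all genes, and 32 of the 54 lay above the latter. Among protein-coding genes the median was 3.50 exons per kb, above which 40 members also lay.

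Ift genes had a median of 6.11 exons per kb, with 12 of 14 above the median of all genes, and Bbs genes a close median of 5.95, with 5 of 8 above it. Ift43 had 11.5 exons per kb, the highest of all members, followed by Ift74 with 9.35 and Ift172 with 8.88, the last through 48 exons. The 5 Bbs genes above the median were all BBSome subunits and also lay above the upper quartile. Cep genes had a lower median of 4.38, with 23 of 34 above the median of all genes. The 2 chaperonin-like genes, Bbs10 and Bbs12, were among the 7 members below the lower quartile of all genes. They each have 2 exons, with last exons of 2515 and 2401 bases, and 0.729 and 0.822 exons per kb. Cep83os was lower still, at 0.457.

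Long internal exons occurred among the members in Cep genes only. An internal exon over 400 bases was present in 14 of the 54 members with an internal exon (25.9%), compared with 21.7% of all genes. All 14 were Cep genes, which is 41.2% of the 34, whereas 0 of 14 Ift genes and 0 of 6 Bbs genes had one. The longest internal exon of an Ift gene ranged from 93 bases in Ift43 to 249 in Ift172. An internal exon over 1000 bases was present in 6 Cep genes: Cep250 with 2559 bases, Cep350 with 1964, Cep170 with 1818, Cep170b with 1671, Cep164 with 1659 and Cep68 with 1503. Both linker genes and the paralogue pair Cep170 and Cep170b are among these 6. The others over 400 bases ranged from 456 in Cep290 to 877 in Cep192 and also comprised Cep85, Cep97, Cep128, Cep152, Cep162 and Cep85l. In the list of other centriole and pericentriolar genes, 8 of 21 had such an exon, among them Nin with 2121 bases, Ccp110 with 1645 and Cenpj with 1627. Genes of transport and of the ciliary base under other symbols also had them: Traf3ip1, an IFT-B subunit, with 420 bases, Mkks with 1389, the motor genes Kif3b with 1468 and Wdr60 with 421, and Rpgrip1l of the transition zone with 453.

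**Figure D2:**
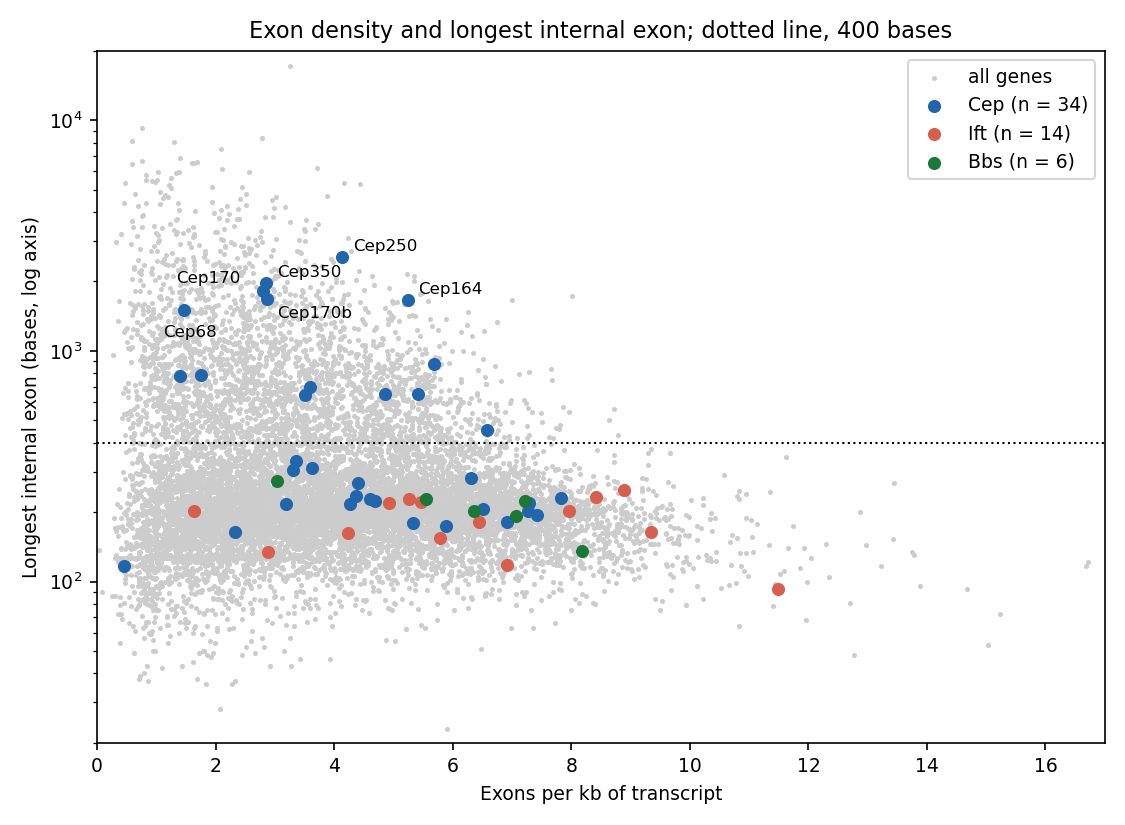
Exons per kb of transcript (x axis) and the longest internal exon in bases (y axis, log scale) of the 54 members with an internal exon, colored by family, over all genes in grey. The dotted line marks 400 bases: 14 Cep genes lie above it, 6 of them named at over 1000 bases, and every Ift and Bbs gene shown lies below it.

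Many exons did not exclude a long one. Cep250 had 33 exons and Cep164 had 32, with 4.14 and 5.24 exons per kb, both above the median of all genes. Cep192 had 46 exons, 5.68 per kb, and an internal exon of 877 bases. Cep290, with 54 exons, the most of any member, had 6.58 per kb and an internal exon of 456 bases. Cep68 and Cep97 were of another kind, with 7 and 11 exons and only 1.46 and 1.39 per kb, and Cep97 ended in an exon of 5982 bases.

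The share of each transcript that lies more than 100 bases from any exon junction combined these features. Its median was 37.6% in members and 58.5% in all genes. Of the 56 members, 13 were above the median of all genes and 28 were below the lower quartile of 37.7%. The medians were 42.4% for Cep, 33.7% for Ift and 33.3% for Bbs genes. Ift122 was the extreme case: the transcript used has 30 exons, a last exon of 95 bases, and 0.0797% of its bases in this zone. That transcript has 3765 bases, of which 3723 are coding, so it holds almost no untranslated sequence. The merged exons of Ift122 span 4302 bases, so its share may depend on the transcript chosen. Cep131 had 7.20% and Cep95 8.27%. At the other end stood Cep83os with 95.2%, Bbs12 with 94.6%, Bbs10 with 92.7%, Cep97 with 81.7% and Ift22 with 81.5%.

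**Figure D3:**
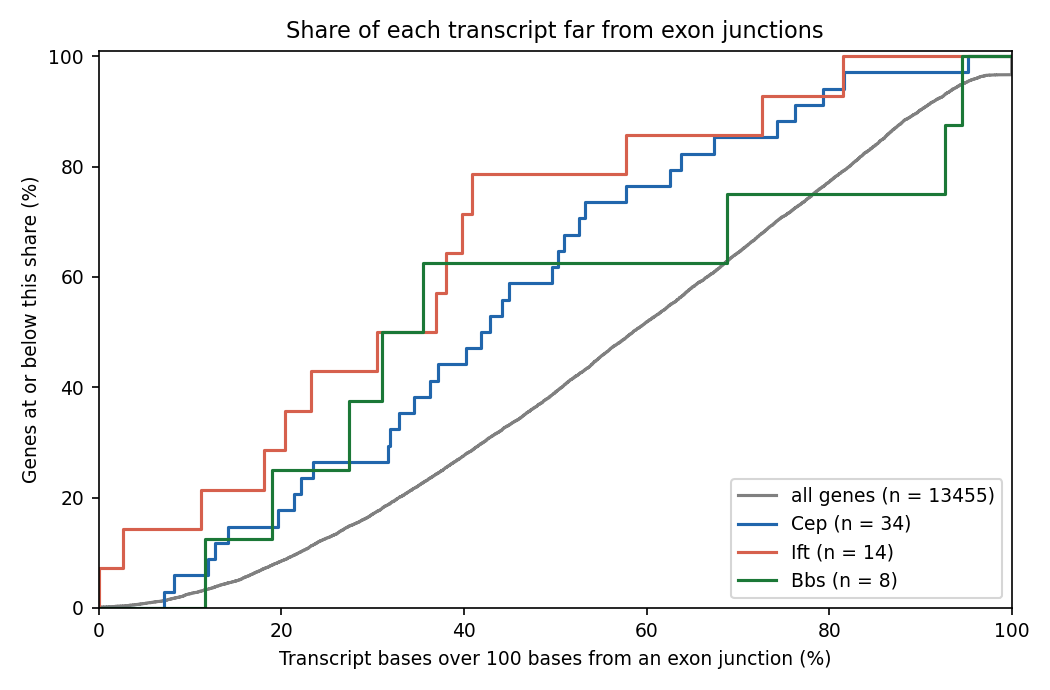
Cumulative share of genes (y axis, percent) at or below a given percent of transcript bases more than 100 bases from an exon junction (x axis), for each family and for all genes. The Ift and Cep curves rise to the left of the curve of all genes, with medians of 33.7% and 42.4% compared with 58.5%, and the Bbs curve ends to the right of it, with Bbs10 at 92.7% and Bbs12 at 94.6%.

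The sequence GGACT is the most common form of the m6A consensus. Counted on the transcript strand, its median was 1.06 per kb in members and 1.05 in all genes. The families lay on either side of this value, with 1.54 per kb in Ift genes, 11 of 14 of them above the median of all genes, 1.00 in Cep genes and 0.769 in Bbs genes, 1 of 8 above. Restricted to the zone more than 100 bases from a junction, the medians were 0.392 and 0.511 per kb of transcript. These values are divided by the whole transcript, of which the zone is a smaller share in members. They do not give the density of matches within the zone. No match in the zone was present in 17 of 56 members (30.4%), compared with 26.3% of all genes. Ift172 had 10 matches, Cep250 had 7 and Cep290 had 6, and in each of the 3 genes 0 were in the zone. Cep350 had 15 matches, of which 10 were in the zone, Cep85l had 11 of 12 there, Cep97 7 of 8 and Cep68 6 of 6. A match is a sequence, and methylation of these sites was not measured here.

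Exon density and level were only loosely related. Across the 56 members, Spearman's rho of exons per kb with level per kb was 0.215, and across the 13455 genes it was 0.230. Each of the 2 measures is divided by a length, transcript length for exons and merged exon length for level. Genes are not independent replicates. The 3 highest levels, of Ift52, Cep55 and Cep57, belonged to genes with 5.78, 3.63 and 4.36 exons per kb. The 3 lowest, of Cep83os, Cep112 and Cep85l, belonged to genes with 0.457, 7.82 and 1.75.

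Many members start next to another gene. A gene on the opposite strand, transcribed away, began within 1000 bases of the start of 23 of 56 members (41.1%), compared with 15.4% of all genes. These were 17 of 34 Cep genes, 6 of 14 Ift genes and 0 of 8 Bbs genes. The closest pairs were Ift20 with Tnfaip1 at 29 bases, Cep44 with Fbxo8 at 43 and Cep19 with Pigx at 60. Cep350 with Gm9694 and Ift46 with Arcn1 followed at 63 bases. Cep83 and Cep83os, both members, start 78 bases apart and count as 2 of the 23. The levels of this pair were far apart, at 224 per kb for Cep83 and 2.53 per kb for Cep83os. Ift122 starts 99 bases from Mbd4, a DNA glycosylase gene, and Ift80 starts 168 bases from Smc4, a condensin gene.

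The number in a Cep or Ift symbol usually stands for the mass of the protein in kDa, and it was compared with the mass computed from the annotated coding sequence. Of 33 coding Cep genes, 25 were within 10% of their number and 29 within 20%. Cep290 came to 290 kDa and Cep350 to 346. The Cep proteins beyond 20% were all larger than named, with Cep192 at 276 kDa, Cep164 at 226, Cep152 at 197 and Cep63 at 86.8. Between 10% and 20%, Cep250, Cep68 and Cep78 were larger, at 279, 78.7 and 86.9 kDa. Cep57l1 was smaller, at 50.1. The symbols Cep57l1, Cep85l and Cep170b repeat the number of another member, and these genes are counted among the 33. Of 14 Ift genes, 6 were within 10% and 10 within 20%. Those beyond 20% were smaller than named: Ift43 at 23.5 kDa, Ift46 at 34.1, Ift20 at 15.2 and Ift27 at 20.8. Between 10% and 20%, Ift140, Ift122 and Ift172 were larger, at 166, 142 and 198 kDa. Ift57 was smaller, at 48.8. The mass is that of the mouse protein of the transcript with the longest coding sequence.

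Symbols limit which genes the choice of members takes in. In the table, 5830418K08Rik, which is also named Cep295, had a mean count of 1793, Fgfr1op, also Cep43, had 1225, and Fopnl, also Cep20, had 417. They were not counted as members because the table lists them under other symbols.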

How the data were processed

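The authors removed ribosomal RNA reads with bowtie2, aligned the rest with STAR to mm10 masked at strain variants, kept unique alignments, removed duplicates with Picard and counted genes with TEtranscripts. TEtranscripts was run with its defaults, which ignore strand, whereas the title of the deposited table includes the word reverse, so the use of strand is uncertain. One table of 18694 rows (17597 genes and 1097 transposable elements) was analysed. Its signal column was deposited as the authors' mean over all libraries of counts divided by size factors. The other 5 columns hold the authors' comparison of both groups (log2 fold change, standard error, statistic, p and adjusted p) and were not used, so no comparison between groups was made.

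Symbols were matched to the basic set of GENCODE vM21 (GRCm38, the build of mm10), 16660 directly and 17366 in all. Exon structure came from the transcript with the longest coding sequence, and promoters from RefSeq. Masses were computed with Biopython 1.88, ranks and correlations with pandas 2.3.3 and scipy 1.17.1, and the counting steps were tested on simulated transcripts. Named genes were those with an assigned role, the highest and lowest members of each measure, X-box matches and the genes of the lists. The members and lists were chosen with earlier results of these data known. The distance of 100 bases from a junction, the GGACT count, the exon limits of 400 and 1000 bases, divergent starts and exon overlap were chosen after values were seen. Alternatives were another minimum count, another transcript, another length, another background and another X-box spacer. Single values of 1 member and 1 promoter stretch are not reported here.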

Additional observations from a re-analysis of the deposited data

How the results depend on the processing

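No paired analysis was possible because the values are means over all libraries, with no value per library and no test. For the same reason no library could be left out, and the depth and the error of each mean count are unknown. Requiring a spacer of 2 bases between the blocks of the X-box left 2 of the 4 members with a match, Bbs7 and Cep19, and 143 of 27025 symbols. The other 22 recomputed values stayed within 1.5 times of those reported. The median level changed from 111 to 121 per kb with the length of 1 transcript, and the median exon density from 5.08 to 4.78 exons per kb with the longest transcript. With no minimum count, 41 members lay above the median exon density of all genes, and with a minimum of 20, 40 did. Exon structure was read from annotation, so the isoforms used in these cells were not measured.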
